A study of Homo sapiens with 6 samples.

Results

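The HLA class I antigen presentation genes examined here were HLA-B, HLA-C, HLA-E, HLA-F, B2M, TAP1, TAP2, PSMB8 and PSMB9. They were chosen by name from the 58051 genes of the count data, so 9 genes of that total make up the group, and all 9 had enough counts to be tested. The cells were A172, an established human glioblastoma line, grown in DMEM with fetal bovine serum. Stable lines were made by lentiviral delivery of either GFP, the control, or RBFOX1, an RNA-binding protein that recognises the motif TGCATG, and both groups therefore carry a lentiviral insertion and its expression vector. Each group had 3 libraries of rRNA-depleted total RNA, which the study's methods describe as biological replicates, and the comparison asks how the RNA of these genes differed between RBFOX1 and GFP cells.

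Class I molecules show peptides from inside the cell to CD8 T cells and NK cells. A heavy chain (HLA-B, HLA-C, HLA-E or HLA-F) pairs with the invariant light chain B2M, and the TAP1 and TAP2 transporter carries peptides into the endoplasmic reticulum, where they are loaded. PSMB8 and PSMB9 are catalytic subunits of the immunoproteasome, an interferon-inducible form of the protease that cuts these peptides, and most of these genes are known to respond to interferon through elements in their promoters.

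Library totals lay between 7433414 and 23249221 counts on genes, and counts were scaled with edgeR's TMM factors to give normalized counts at the mean depth of the 6 libraries. RBFOX1 was at 4, 0 and 1 counts in the GFP libraries and at 10276, 16467 and 21451 counts in the RBFOX1 libraries. Of the markers of glioblastoma lines, VIM, CD44, NES and EGFR were abundant, with 1434 counts or more in every library. Of the 9 line markers tested, 5 were lower (55.6%, against 22.9% of all genes tested) and 2 higher (22.2%, against 23.7%) in RBFOX1 cells. Among them were TNC at -3.66, SOX9 at -1.14 and SOX2 at 2.53 on the log2 scale. GFAP, a glial marker, had between 1 and 4 counts per library, and S100B, PTPRZ1 and FABP7 had at most 2. Of 18 immune cell markers, 8 were at 0 counts in every library, among them the lymphocyte genes CD3E, CD3D, CD2 and MS4A1. The summed level of the 18 was 19.2 to 20.9 CPM (counts scaled to library totals) in GFP and 21.5 to 24.9 in RBFOX1 libraries. Of the 8 with enough counts to be tested, 4 were higher by edgeR (50%, against 23.7%), namely PTPRC, CD83, CSF1R and CD79A. Another 2, ITGAX and ITGAM, were lower (25%, against 22.9%). PTPRC was at 10 to 38 counts in GFP and 27 to 74 in RBFOX1 libraries. CSF1R was at 12 to 26 counts in GFP and 26 to 30 in RBFOX1 libraries, and CD79A at 0 to 1 and 1 to 5. The part of such cells in the results was not tested.

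Because interferon acts on many of these genes through promoter elements, the RefSeq promoters (GRCh38.p14, windows that run from before each annotated start to shortly after it) were searched for the interferon response element. The letters searched were GAANNGAAA and the same with a further A ahead of NN, on both strands, and a base can belong to matches of both forms. Of the 9 genes, 8 had a promoter entry and HLA-E had none. The 8 genes had 10 promoters in the table, of which 7, one in each gene except PSMB9, held at least one match, against 10.6% of 35116 promoters. The TAP1 matches lie between the RefSeq starts of TAP1 (32853704) and PSMB9 (32854192), outside the window searched for PSMB9. One match per gene is shown 5′ to 3′ on the gene's strand with the matched letters in capitals.
HLA-B, chr6:31357315-31357344, minus strand: ctcccctgagTTTCACTTCttctcccaact
HLA-C, chr6:31272224-31272253, minus strand: ctcccctgagTTTCACTTCtcccaacctgc
HLA-F, chr6:29723268-29723297, plus strand: ctccccagagTTTCTCTTTCtctcccaacc
B2M, chr15:44711369-44711398, plus strand: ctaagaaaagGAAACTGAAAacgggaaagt
TAP1, chr6:32853813-32853842, minus strand: ccgctttcgaTTTCGCTTTCccctaaatgg
TAP2, chr6:32838778-32838807, minus strand: ctggggaagcGAAAGCGAAAgctgcccgag
PSMB8, chr6:32844032-32844061, minus strand: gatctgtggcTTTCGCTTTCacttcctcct

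The HLA-B and HLA-C stretches carried the same 9 letters, at bases -155 to -147 and -151 to -143 from their starts. A match describes the letters in this window and is not evidence that a factor binds there. The NF-kappaB consensus was found in HLA-B, HLA-C, B2M and TAP1, against 5.91% of all promoters. The gamma-activated site TTCNNNGAA was found in TAP1 and PSMB8, against 7.66%. The X2 box core TGACG, part of the element through which NLRC5 acts on class I genes, was found in 6 of the 10 promoters against 24.6% of all promoters, and CCAAT in 6 of the 10 against 34.6%.

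In RBFOX1 cells, 4 of the 9 genes rose and 2 fell at an adjusted p under 0.05, and 3 did not pass this threshold. These counts and the adjusted p-values below come from edgeR's quasi-likelihood test, two-sided, with Benjamini-Hochberg adjustment over the 20536 genes tested. The same test called 23.7% of all genes tested higher and 22.9% lower, 46.7% in all. The groups did not overlap for 7 of the 9 genes, 5 higher and 2 lower, against 53.4% of all genes tested. None of the 9 reached an absolute log2 fold change of 1 together with the threshold, against 12.7% of all genes tested. The median log2 fold change of the 9 was 0.14, and that of all genes tested was 0.0051.

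**Figure D1:**
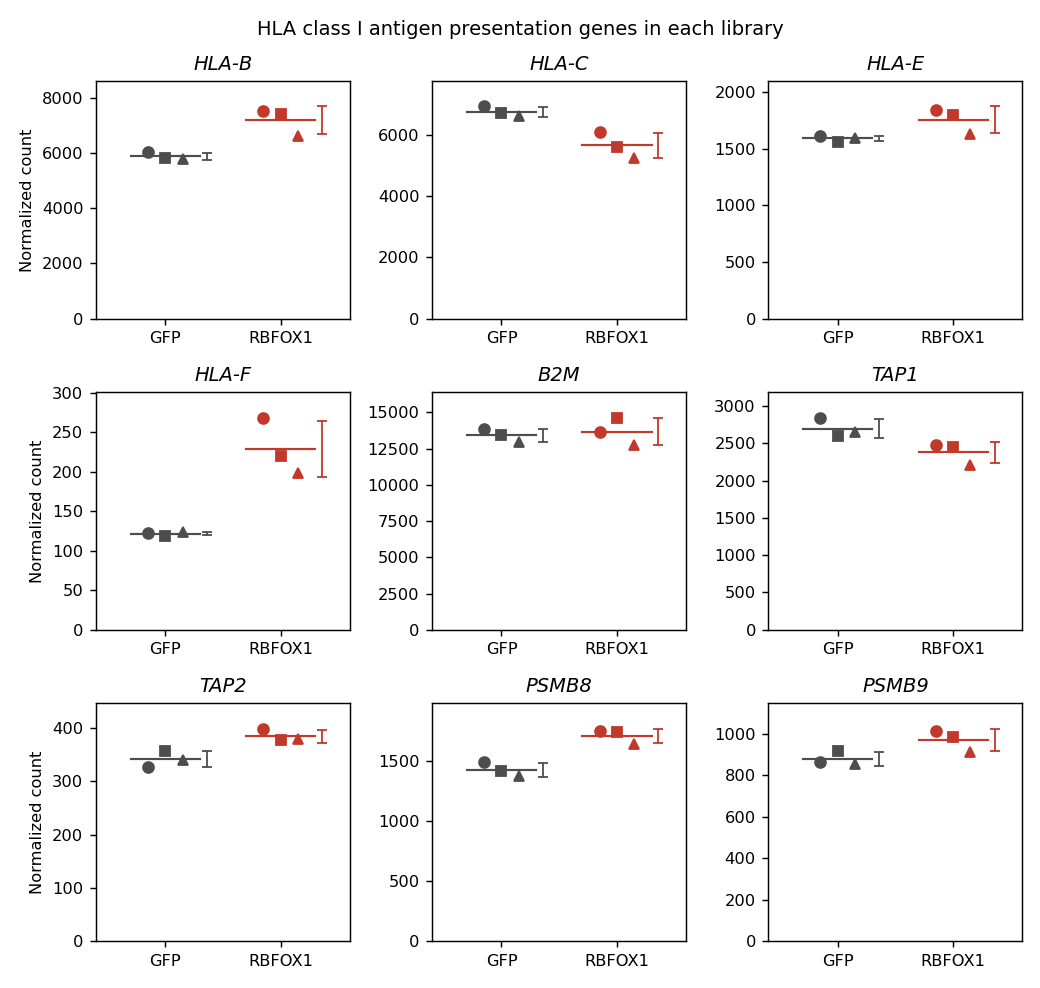
Normalized counts (linear axes from 0) of the 9 genes in 3 GFP (grey) and 3 RBFOX1 (red) libraries, with circles, squares and triangles for replicates 1, 2 and 3, horizontal lines for group means and bars for 1 SD. HLA-F showed the largest fold difference, from 119 to 123 in GFP and from 198 to 268 in RBFOX1 cells, and B2M overlapped between the groups.

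HLA-F, a non-classical heavy chain, showed the largest fold difference of the 9. Its gene (ENSG00000204642) lies on the plus strand at chr6:29722775-29738528 (GRCh38). HLA-F was at 122, 119 and 123 normalized counts in GFP libraries and at 268, 220 and 198 in RBFOX1 libraries. Every RBFOX1 library was above every GFP library, and the spread was wider in RBFOX1 cells. The level rose 1.84-fold, with a log2 fold change of 0.88 ± 0.11 (SE, n = 3 per group) and an adjusted p of 1.88e-06 by edgeR. Raw counts behind these values were 201, 102 and 117 in GFP and 148, 198 and 217 in RBFOX1 libraries.

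HLA-B and HLA-C are classical heavy chains that lie near each other and are close in sequence. HLA-B (ENSG00000234745, minus strand, chr6:31353872-31367067) was at 6027, 5817 and 5786 normalized counts in GFP and at 7522, 7420 and 6600 in RBFOX1 libraries. HLA-C (ENSG00000204525, minus strand, chr6:31268749-31272130) was at 6919, 6691 and 6605 in GFP and at 6087, 5606 and 5249 in RBFOX1 libraries. The 3 RBFOX1 libraries were all above the GFP libraries for HLA-B and all below them for HLA-C. The log2 fold change of HLA-B was 0.29 ± 0.053 (SE, n = 3 per group; edgeR adjusted p = 0.000136). That of HLA-C was -0.26 ± 0.053 (SE, n = 3 per group; edgeR adjusted p = 0.000472).

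Because a ratio within a library does not depend on scaling between libraries, HLA-B was also divided by HLA-C as counts per kilobase of the canonical transcript. This ratio was 0.874, 0.873 and 0.879 in GFP and 1.24, 1.33 and 1.26 in RBFOX1 libraries. GFP libraries thus held less HLA-B than HLA-C and RBFOX1 libraries held more. The mean ratio was 0.875 ± 0.0035 with GFP and 1.28 ± 0.046 with RBFOX1 (SD, n = 3 each), and an exact two-sided permutation test gave p = 0.1, the smallest value that 3 libraries against 3 allow. The ratio, like those of HLA-B to B2M, HLA-C to B2M and PSMB9 to TAP1, was chosen after the values were seen, and each of these 4 gave p = 0.1 with an adjusted p of 0.1 over the 4 by the same exact test. HLA-B to B2M was 0.269 ± 0.0046 with GFP and 0.322 ± 0.014 with RBFOX1, and HLA-C to B2M was 0.307 ± 0.0040 and 0.253 ± 0.019 (SD, n = 3 each).

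HLA genes are highly polymorphic and similar to one another, so reads of A172 alleles that differ from the reference, or that match several class I genes, may be lost or counted on a related gene. Between 16.8% and 27.0% of read pairs per library were set aside for low mapping quality, 21.1% to 25.0% in GFP and 16.8% to 27.0% in RBFOX1 libraries. How many of these came from HLA genes, and their part in the differences between HLA genes, was not tested. Within GENCODE 44, 30.7% of the exon bases of HLA-B are shared on the same strand with the pseudogene DHFRP2, which had 0 counts in every library.

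HLA-E, the heavy chain that presents leader peptides of other class I chains to NK cell receptors, differed little. HLA-E (ENSG00000204592, plus strand, chr6:30489509-30494194) was at 1611, 1563 and 1598 normalized counts in GFP and at 1845, 1800 and 1625 in RBFOX1 libraries. The groups did not overlap, but RBFOX1 replicate 3 lay close to the GFP libraries. The log2 fold change was 0.14 ± 0.055 (SE, n = 3 per group), and the adjusted p of 0.0472 by edgeR was close to the threshold. The call was lost in 9 of 14 alternative settings, with adjusted p-values between 0.00756 and 0.139 over the 14. Among these, it was lost without GFP replicate 2 (adjusted p = 0.134), GFP replicate 3 (0.0869), RBFOX1 replicate 1 (0.118) or RBFOX1 replicate 2 (0.139), each by edgeR.

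B2M, the light chain shared by the class I molecules, was the most abundant of the 9 and the only one outside chromosome 6. B2M (ENSG00000166710, plus strand, chr15:44711358-44718851) was at 13868, 13451 and 12966 normalized counts in GFP and at 13673, 14645 and 12727 in RBFOX1 libraries. The groups overlapped, with both the highest and the lowest library being RBFOX1. The log2 fold change was 0.027 (95% confidence interval -0.085 to 0.14; edgeR adjusted p = 0.728), and it was -0.02 without RBFOX1 replicate 2.

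The transporter genes were among the smaller differences. TAP1 (ENSG00000168394, minus strand, chr6:32845209-32853816) was at 2845, 2598 and 2648 normalized counts in GFP and at 2472, 2447 and 2216 in RBFOX1 libraries. TAP2 (ENSG00000204267, minus strand, chr6:32821833-32838739) was at 328, 357 and 340 in GFP and at 399, 377 and 379 in RBFOX1 libraries. All RBFOX1 libraries lay below the GFP libraries for TAP1 and above them for TAP2. TAP1 fell by 0.19 on the log2 scale (SE 0.055, n = 3 per group; edgeR adjusted p = 0.00833), but leaving out RBFOX1 replicate 3 gave -0.13 (edgeR adjusted p = 0.101). TAP2 did not pass the threshold, with a log2 fold change of 0.17 (95% confidence interval 0.015 to 0.33; edgeR adjusted p = 0.068).

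Of the immunoproteasome subunits, PSMB8 rose and PSMB9 missed the threshold. PSMB8 (ENSG00000204264, minus strand, chr6:32840717-32844679) was at 1495, 1414 and 1380 normalized counts in GFP and at 1750, 1742 and 1646 in RBFOX1 libraries. PSMB9 (ENSG00000240065, plus strand, chr6:32844136-32859851) was at 867, 919 and 853 in GFP and at 1016, 988 and 912 in RBFOX1 libraries. The groups were apart for PSMB8 and overlapped for PSMB9, where RBFOX1 replicate 3 lay just below GFP replicate 2. The log2 fold change of PSMB8 was 0.26 ± 0.053 (SE, n = 3 per group; edgeR adjusted p = 0.000485). That of PSMB9 was 0.14 (95% confidence interval 0.013 to 0.27; edgeR adjusted p = 0.0674), and it passed without RBFOX1 replicate 3 at 0.19 (edgeR adjusted p = 0.0342).

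TAP1 and PSMB9 are transcribed in opposite directions from RefSeq starts 488 bases apart, at positions 32853704 and 32854192 of chromosome 6. Their counts per kilobase stood in a ratio of PSMB9 to TAP1 of 0.804, 0.934 and 0.851 in GFP and of 1.08, 1.07 and 1.09 in RBFOX1 libraries. On this scale TAP1 was above PSMB9 in every GFP library and below it in every RBFOX1 library. That order depends on the canonical lengths used, 2685 bases for TAP1 and 1017 for PSMB9. In raw counts TAP1 was above PSMB9 in every library, at 1363, 2204 and 2427 against 560, 890 and 999 in RBFOX1 libraries. PSMB8-AS1, an antisense RNA that shares 5.21% of the PSMB9 exon bases on the same strand, was at 41 to 111 counts per library. The deposited counts are labelled as reverse-stranded, and how far opposite-strand reads of overlapping genes were kept apart was not tested.

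Per kilobase of canonical transcript, the order of the group means in GFP cells was B2M, HLA-C, HLA-B, PSMB8, TAP1, PSMB9, HLA-E, HLA-F and TAP2, and no neighbours in this order overlapped between libraries. In RBFOX1 cells the order was B2M, HLA-B, HLA-C, PSMB8, PSMB9, TAP1, HLA-E, HLA-F and TAP2, where PSMB9 and TAP1 overlapped. The level of B2M was 14240 ± 479 normalized counts per kilobase with GFP and 14509 ± 1017 with RBFOX1 (SD, n = 3 each). That of TAP2 was 60.6 ± 2.6 and 68.3 ± 2.1 (SD, n = 3 each), the lowest of the group. TAP2 shares 19.5% of its exon bases on the same strand with the protein-coding gene ENSG00000250264, which had 0 counts in every library. This share comes from a later annotation than the counts used, and the overlap in the counted annotation was not measured. Reads there may be dropped as ambiguous, but the part of such loss in the TAP2 level was not tested. The 9 genes together took 0.229% to 0.242% of the counts in GFP and 0.232% to 0.260% in RBFOX1 libraries.

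The RBFOX1 libraries were more spread than the GFP libraries for these genes. The median SD of log2 normalized counts was 0.049 in GFP and 0.097 in RBFOX1 cells, against 0.081 and 0.078 over the 12012 genes tested that averaged at least 50 normalized counts. RBFOX1 replicate 3 was the lowest of the 3 RBFOX1 libraries for 8 of the 9 genes, TAP2 being the exception, and for 39 of 41 interferon-stimulated genes, against 30.2% of the 12012 genes. The interferon-stimulated genes had a median SD of 0.10 in GFP and 0.31 in RBFOX1 cells. The part of this library in the differences of the class I genes was tested only by leaving it out, where HLA-B, HLA-C, HLA-F and PSMB8 kept their calls, as they did in all 14 alternative settings.

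Over the 6 libraries, the protein-coding genes with profiles most like the median profile of the 9 were KLF7, ARL14EP, CCNH, CLINT1 and GMCL1. Their Euclidean distances on centred log2 CPM were 0.064 to 0.075 among 11060 candidates.

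Beyond the 9, the heavy chain genes of the class I family were mostly lower. Of 14 tested, 8 were lower (57.1%, against 22.9% of all genes tested), 3 were higher (21.4%, against 23.7%) and 3 did not pass, and the median log2 fold change was -0.74. Among the genes called higher, CD1D and FCGRT were at most at 23.3 normalized counts in any library, and FCGRT had 0 counts in GFP libraries and was at least 2.20-fold higher against a floor of 3 counts per library. HLA-G had 0 counts in every library.

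The ligands of NKG2D, an activating receptor of NK and T cells, included no gene called higher. Of 8 tested, 5 were lower (62.5%, against 22.9% of all genes tested) and 3 did not pass. All 8 were also counted in the heavy chain list above, so these 5 are not a further set of calls. Some of the 5 had few counts: ULBP3 was at 4, 12 and 20 counts in RBFOX1 libraries, and RAET1E and RAET1G were at 27 or fewer in every library. RAET1G lost its call with DESeq2 (adjusted p = 0.106) and without GFP replicate 1 (edgeR adjusted p = 0.105). MICB was at 356, 287 and 347 normalized counts in GFP and at 198, 188 and 194 in RBFOX1 libraries, a 1.72-fold fall (log2 fold change -0.79, edgeR adjusted p = 8.96e-07). ULBP2 fell by 0.90 and ULBP3 by 1.89 on the log2 scale, while MICA, next to HLA-B, was at -0.17 and did not pass (edgeR adjusted p = 0.101). MR1, which presents vitamin B metabolites, fell by 0.76, HFE, a regulator of iron uptake, by 0.70, and PROCR, the endothelial protein C receptor, by 0.78.

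Genes of peptide trimming, in the cytosol and the endoplasmic reticulum, and of peptide loading were counted as one list of 19. Of these, 10 were lower (52.6%, against 22.9% of all genes tested), 3 were higher (15.8%, against 23.7%) and 6 did not pass. The median was -0.20. ERAP2, an aminopeptidase that trims peptides in the endoplasmic reticulum, was at 10810, 10602 and 10623 normalized counts in GFP and at 2567, 2729 and 2538 in RBFOX1 libraries. This 4.09-fold fall (log2 fold change -2.03 ± 0.049, SE, n = 3 per group; edgeR adjusted p = 3.11e-17) was larger than that of any of the 9. ERAP1, its relative, was at 2034, 2209 and 2029 in GFP and at 1001, 940 and 823 in RBFOX1 libraries, a 2.28-fold fall (edgeR adjusted p = 7.61e-12). LNPEP, the third member of this family, fell by 0.47 on the log2 scale.

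Within the peptide loading complex, TAPBP (tapasin), which bridges the transporter and the heavy chain, fell from 2399, 2671 and 2796 to 1910, 1623 and 1642 normalized counts (log2 fold change -0.61, edgeR adjusted p = 1.79e-07). CANX (calnexin), a chaperone of new heavy chains, fell by 0.41. CALR (calreticulin) was at -0.01 and PDIA3 (ERp57) at -0.07 on the log2 scale, and neither passed. The genes called higher were the cytosolic peptidases BLMH (0.44), LAP3 (0.23) and TPP2 (0.20), and LAP3 did not pass without RBFOX1 replicate 2 (0.18, edgeR adjusted p = 0.0685).

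**Figure D2:**
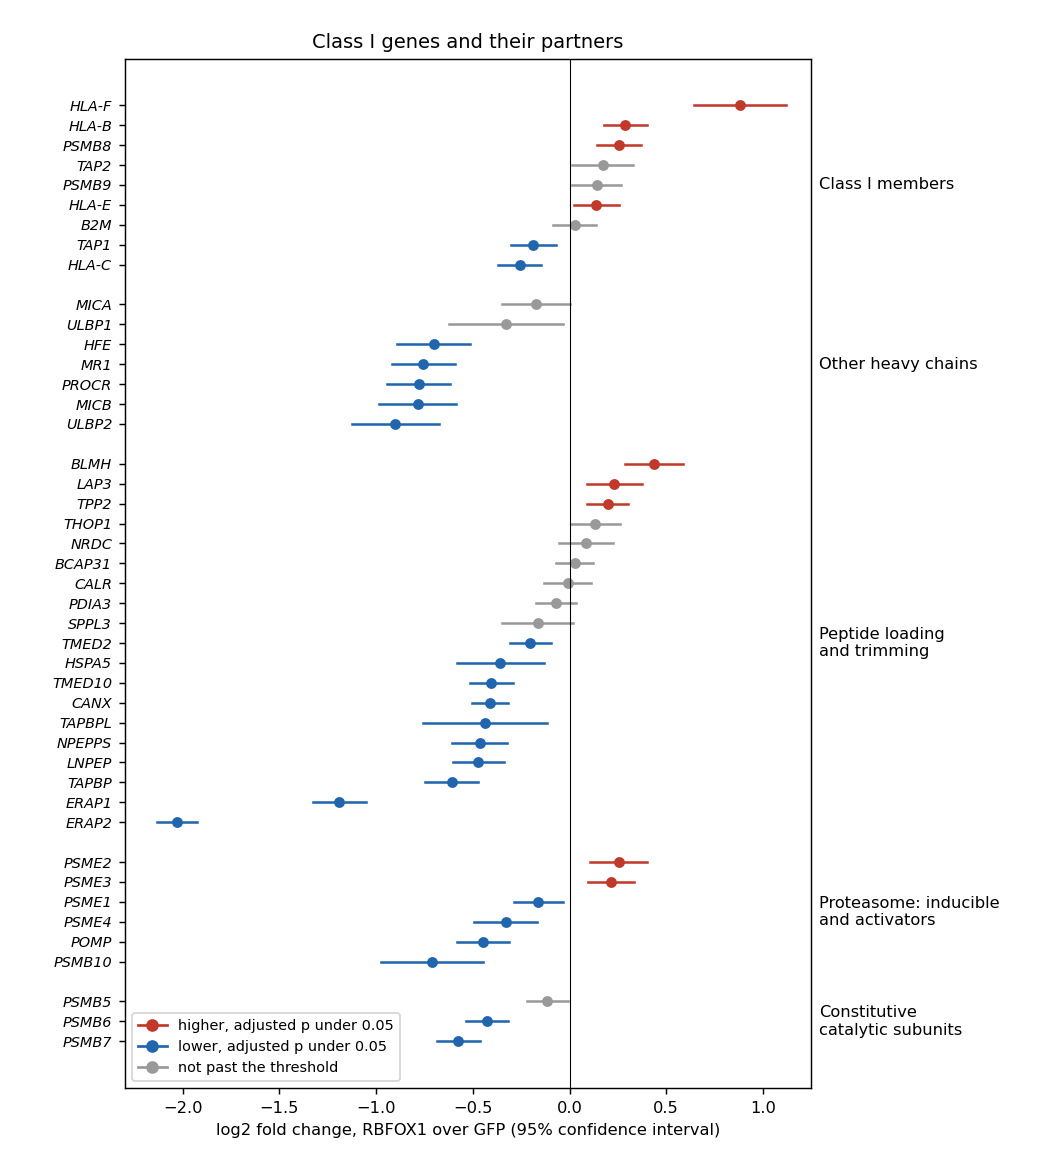
Log2 fold change of RBFOX1 over GFP cells with its 95% confidence interval (edgeR) for the 9 class I genes and for most genes of 4 related lists that averaged at least 50 normalized counts, coloured by the call. HLA-F at 0.88 stood at the upper end and ERAP2 at -2.03 at the lower end, and HLA-C and TAP1 were the only ones of the 9 called lower.

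The third inducible catalytic subunit, PSMB10, went the other way from PSMB8. It was at 124, 118 and 126 normalized counts in GFP and at 72.6, 82.2 and 70.3 in RBFOX1 libraries, and it fell by 0.71 on the log2 scale (SE 0.13, n = 3 per group; edgeR adjusted p = 8.75e-05). POMP, the assembly factor, fell by 0.45. Of the activator subunits, PSME2 (0.25) and PSME3 (0.21) rose, and PSME1 (-0.16, edgeR adjusted p = 0.0349) and PSME4 (-0.33) fell. The call of PSME1 was lost in 5 of 14 alternative settings, among them without GFP replicate 1 (-0.093, edgeR adjusted p = 0.151), RBFOX1 replicate 1 (-0.17, 0.0546) or RBFOX1 replicate 3 (-0.11, 0.226).

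The 14 subunits of the standard 20S core included 12 called lower (85.7%, against 22.9% of all genes tested) and 0 called higher (against 23.7%). The median was -0.40. PSMB7 fell by 0.58 and PSMB6 by 0.43 on the log2 scale, whereas PSMB5 was at -0.11 (edgeR adjusted p = 0.0703) and PSMA2 at 0.15 (edgeR adjusted p = 0.333). Each inducible subunit was therefore divided by the constitutive subunit that it replaces, as counts per kilobase within a library. PSMB8 over PSMB5 was 0.680, 0.635 and 0.671 in GFP and 0.886, 0.872 and 0.819 in RBFOX1 libraries. PSMB9 over PSMB6 was 0.221, 0.254 and 0.246 in GFP and 0.379, 0.357 and 0.331 in RBFOX1 libraries. For both pairs every RBFOX1 library was above every GFP library. The ratios were 1.30 and 1.48 times as high in RBFOX1 cells (exact two-sided permutation test, p = 0.1 each, adjusted p = 0.15 over 3 ratios), and 0.1 is the smallest p this design allows. PSMB10 over PSMB7 was 0.0193 ± 0.0012 with GFP and 0.0176 ± 0.0015 with RBFOX1 (SD, n = 3 each), and the groups overlapped (exact permutation test, p = 0.3).

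**Figure D3:**
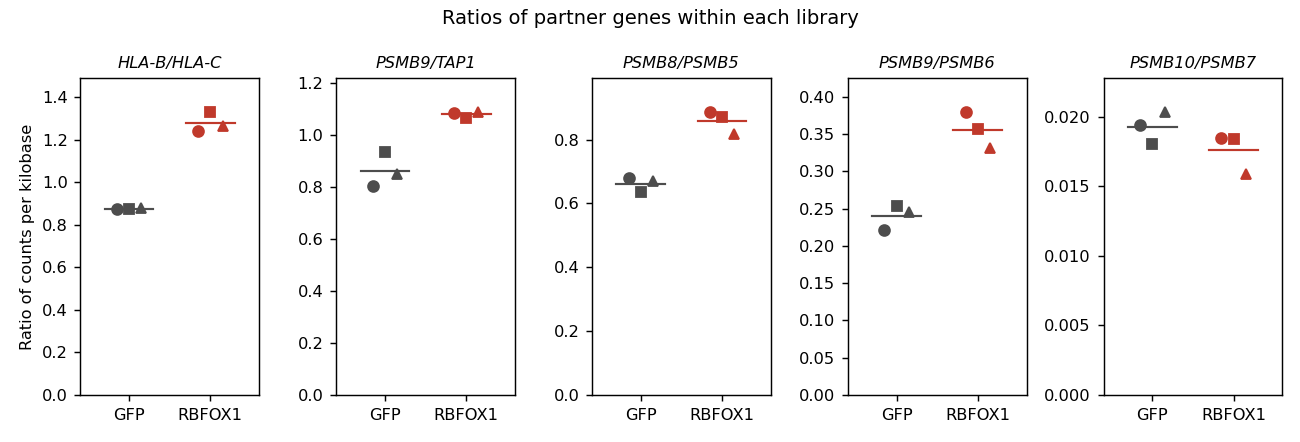
Ratios of counts per kilobase (linear axes from 0) within each of 3 GFP (grey) and 3 RBFOX1 (red) libraries, with circles, squares and triangles for replicates 1, 2 and 3 and lines for group means. HLA-B to HLA-C averaged 0.875 and 1.28 without overlap, and PSMB10 to PSMB7 overlapped.

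Regulators of class I transcription were more often higher, with 10 of 21 higher (47.6%, against 23.7% of all genes tested). Of the others, 1 was lower (4.76%, against 22.9%) and 10 were not past the threshold. The median was 0.16. NLRC5, the transactivator of class I genes, was at 311, 314 and 315 normalized counts in GFP and at 450, 437 and 395 in RBFOX1 libraries, with no overlap (log2 fold change 0.44 ± 0.077, SE, n = 3 per group; edgeR adjusted p = 7.75e-05). STAT2 (0.72), which carries the interferon signal, rose, and IRF1 (0.14, edgeR adjusted p = 0.0478) passed narrowly. The call of IRF1 was lost in 8 of 14 alternative settings (highest adjusted p = 0.133), among them without GFP replicate 2 or 3 or RBFOX1 replicate 1 or 2. NFYB (1.06) and NFYC (0.76), subunits of the factor that binds the CCAAT box, rose. NFYA, another subunit of that factor, did not pass (0.047, edgeR adjusted p = 0.72). Also higher was EZH2 (1.07), a histone methyltransferase known to repress class I genes. NFKB1 was the gene called lower, at -0.40.

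Of 12 genes tested for interferon receptors, their kinases, feedback inhibitors and interferon beta, 6 were lower (50%, against 22.9% of all genes tested). Another 2 were higher (16.7%, against 23.7%) and 4 did not pass. The 8 receptors and kinases among the 12 held all 6 called lower and 0 called higher. JAK2 (-0.57), IFNGR2 (-0.61) and IFNAR1 (-0.44) fell, and the feedback inhibitor SOCS3 rose by 1.28 on the log2 scale. Of 44 interferon-stimulated genes tested, 27 were higher (61.4%, against 23.7% of all genes tested), 8 were lower (18.2%, against 22.9%) and 9 did not pass. The median was 0.71. The highest were IFITM1 (6.10), BST2 (3.74), IFI27 (3.60), EPSTI1 (2.92) and IFI6 (2.87). BST2 (tetherin) was at 34.6, 46.7 and 42.1 normalized counts in GFP and at 653, 632 and 351 in RBFOX1 libraries. Among the 9 class I genes the highest log2 fold change was 0.88.

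**Figure D4:**
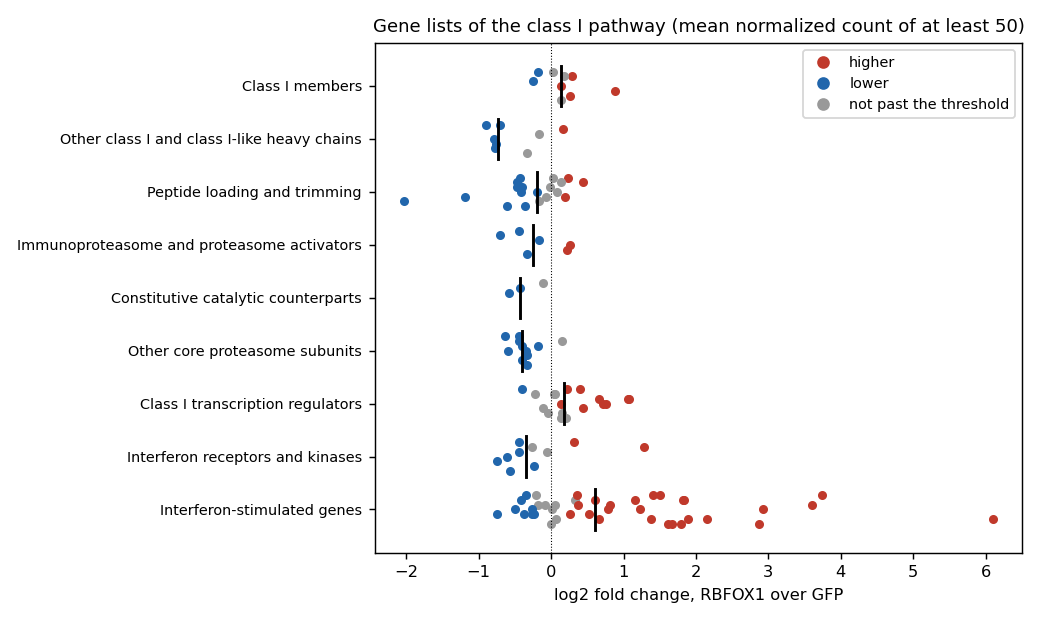
Log2 fold change of RBFOX1 over GFP cells (edgeR) for each gene that averaged at least 50 normalized counts in 9 lists of the class I pathway, one point a gene, coloured by the call, with a black line at the median of the plotted genes (0.60 over 41 interferon-stimulated genes; vertical offsets within a list are for legibility only). The 9 class I genes lay between -0.26 and 0.88, and the interferon-stimulated genes reached 6.10.

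In the class II pathway, 5 of 14 genes had enough counts to be tested, and HLA-DQA1, HLA-DQB1 and HLA-DRB5 had 0 counts in every library. CD74, the invariant chain of class II molecules, was at 17, 5 and 11 counts in GFP and at 30, 40 and 45 in RBFOX1 libraries, and CTSS, a protease that processes it, fell by 1.41 on the log2 scale. These libraries are of bulk RNA, where a change in the number of expressing cells and a change in RNA per cell cannot be told apart.

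Except for B2M, the 9 genes lie in the MHC region of chromosome 6. Of 133 other genes tested between GABBR1 and KIFC1 (chr6:29555629-33409896), 31 were higher (23.3%, against 23.7% of all genes tested), 21 were lower (15.8%, against 22.9%) and 81 did not pass, and the median log2 fold change was 0.11. With total-count scaling, the split was 39 higher and 17 lower. The largest changes among genes of the region that averaged at least 50 normalized counts were TCF19 (1.61), KIFC1 (1.53), HCP5 (1.43), MICB (-0.79) and SNHG32 (-0.75). HCP5, a non-coding RNA between MICA and MICB, was at 42.5, 49.0 and 47.4 normalized counts in GFP and at 129, 140 and 106 in RBFOX1 libraries.

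RBFOX1 binds TGCATG, and the canonical 3′ UTRs of GENCODE 44 were searched for these letters on the transcribed strand. None of the 9 genes held a match in UTRs of 121 to 3491 bases, while 29.7% of 10999 tested genes with UTRs in that range did. TAP2 (3491 bases) and HLA-E (1448) had the longest UTRs of the 9, and the others ran from 121 (HLA-F) to 553 (B2M). Short UTRs have less room for a match, and a share among genes with UTRs of like lengths was not computed. A further 14 genes of the pathway, picked by name and not by a rule, were searched, and 8 of them held no match. Of the other 6, NLRC5 held 1 match, PDIA3 1, ERAP2 2, LNPEP 3, MR1 4 and HFE 5. The NLRC5 and ERAP2 matches are shown with the motif in capitals, since these genes act in the class I pathway while the 9 lack the letters.
NLRC5, chr16:57082788-57082817, plus strand: gtgtcatgacaaTGCATGacacgtacggtt
ERAP2, chr5:96917965-96917994, plus strand: gacatgactgccTGCATGaagtcaaacagg
ERAP2, chr5:96918099-96918128, plus strand: ccagccaaaagaTGCATGatgatggagtgg

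Of the 6 genes with a match, 4 were lower (ERAP2, LNPEP, MR1 and HFE), NLRC5 was higher and PDIA3 did not pass. Of the 8 without one, 6 were lower, 1 was higher and 1 did not pass. The 14 together held 10 called lower, against 22.9% of all genes tested, so both splits describe the genes picked. Calls by match were not counted over all genes tested. UTRs with a match included LNPEP at 8980 bases, MR1 at 6673 and HFE at 4117, while those without one had at most 2997 (CANX). The absence of a match says only that the letters are not in these UTRs.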

How the data were processed

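Total RNA of 3 GFP and 3 RBFOX1 A172 libraries was sequenced by the authors as stranded paired-end reads, aligned to GRCh38 with HISAT2 and counted on Ensembl version 87 annotation by HTSeq-count (intersection-strict). The authors deposited raw counts per gene and library. A deposited table of the authors' DESeq2 comparison (mean, fold change, standard error, Wald statistic and p-values) was not used. The 5 HTSeq class lines, holding 38.1% to 48.0% of read pairs, were left out.

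Genes with at least 10 counts summed over 6 libraries were tested with edgeR 4.0.16 (R 4.3.3; TMM, quasi-likelihood, condition only, Benjamini-Hochberg adjustment, threshold 0.05). DESeq2 1.42.0, limma-voom (limma 3.58.1), other scalings and filters, a replicate block and the omission of each library were alternatives, and total-count scaling was added after seeing the data. The fits were tested on simulated data. Replicates of a group differed by more than counting noise (chi-square per degree of freedom at least 1.66). The largest values, 8.90 and 9.07, were those of GFP replicate 1, the deepest library, against GFP replicates 2 and 3. Intervals cover the spread between these libraries, and the floor of 3 counts covers counting error only.

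Symbols, positions and canonical transcripts came from GENCODE 44 (98.1% of identifiers matched), a later annotation than the counts used. The 9 genes and the lists were chosen with earlier results of these data known. Named were the 9 genes, RBFOX1, genes of the loading, proteasome, heavy chain and regulator lists, up to 5 genes with the largest changes in the other lists and in the MHC region, and the 5 nearest profiles. Marker genes, PSMA2, PSMB8-AS1, CD74 and the genes listed at 0 counts are named as well, CD74 and PSMA2 after their values were seen. Some genes counted in the lists are not reported here by name.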

Additional observations from a re-analysis of the deposited data

How the results depend on the processing

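HLA-B, HLA-C, HLA-F and PSMB8 kept their direction and their call in all 14 alternative settings. The number of the 9 genes called higher ranged from 3 to 6 over these settings (3 with upper-quartile scaling, DESeq2 and limma-voom, 6 with total-count scaling and with filterByExpr, where TAP2 and PSMB9 passed). Leaving out 1 library gave 3 to 5 genes higher and 1 to 2 lower, with TAP1 lost without RBFOX1 replicate 3. A minimum of 1 on the absolute log2 scale left 0 of the 9 higher and 0 lower, 27 higher and 6 lower of the pathway list genes (50 and 50 otherwise), and 14 higher and 1 lower in the MHC region (31 and 21 otherwise). These were 33 of 135 pathway list genes and 15 of 133 region genes, against 12.7% of all genes tested. Of the 15, only TCF19, KIFC1 and HCP5 averaged at least 50 normalized counts. B2M lay between -0.020 and 0.082 over the fits that left out 1 library, the lowest without RBFOX1 replicate 2. CALR turned to 0.042 with total-count scaling, to 0.0053 with filterByExpr, and over the fits that left out 1 library it lay between -0.063 and 0.032, above 0 without GFP replicate 2, GFP replicate 3, RBFOX1 replicate 1 or RBFOX1 replicate 3. The cause was not tested, and neither gene passed the threshold there. Over 82 of the named genes, 1063 of 1145 values kept direction and call, 41 lost it, 34 gained it and 7 changed direction.

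Same-numbered GFP and RBFOX1 libraries were not more alike than other-numbered ones. Their deviations from the group means correlated at -0.17, 0.034 and -0.055 across genes, and those of other-numbered libraries at -0.15 to 0.18. With 3 libraries per group, such correlations cannot show whether the libraries were prepared in pairs. A fit with the replicate block called 3 of the 9 genes higher and 2 lower, with HLA-E at 0.14 (edgeR adjusted p = 0.0637). Over all genes it called 9046, against 9581 without the block. With the pairing, the log2 differences between groups of PSMB8 to PSMB5 (0.37), PSMB9 to PSMB6 (0.57) and PSMB10 to PSMB7 (-0.13) stay the same by arithmetic. An exact sign-flip permutation test of the paired differences gave p = 0.25, 0.25 and 0.5 for these ratios, and 0.25 is the smallest p that 3 pairs allow. HLA-F rested on 102 to 217 counts per library, the fewest of the 9.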
